A study of Mus musculus with 18 samples.

Results

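Spp1, the mouse gene for osteopontin, was described across intestinal tumours of mice with 0, 1 or 2 working copies of Macrod2. It is 1 gene of 24062 in the count table and 1 of 14271 with enough counts to enter the tests. The gene was picked because earlier results of the same counts showed its level falling with Macrod2 dosage. Its levels by genotype are therefore a description and carry no test. The genes that follow it across tumours were picked by their correlation with it, so the correlations and the genotype differences of those genes are descriptions too.

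Osteopontin is a secreted, heavily phosphorylated and glycosylated protein of the SIBLING family, a group of acidic matrix proteins first known from bone and teeth. Cells bind it through integrins, which recognise an arginine-glycine-aspartate (RGD) motif in its middle part, and through CD44, a hyaluronan receptor found on many intestinal epithelial cells. Thrombin and matrix metalloproteinases cut it close to the RGD motif, and the fragments bind a wider range of integrins. In the intestine it is made by macrophages and other immune cells and by epithelial tumour cells, and high osteopontin is a known feature of many human colorectal cancers.

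RNA was sequenced from 18 tumours of male C57BL/6 mice. All carried ApcMin/+, a truncated Apc allele whose bearers form intestinal adenomas because the Wnt pathway loses a brake. The hom group was ApcMin/+/Macrod2-/-, the het group ApcMin/+/Macrod2-/+ and the wt group ApcMin/+/Macrod2+/+. Macrod2 encodes an enzyme that removes ADP-ribose from proteins. Each genotype has 6 numbered mice with 1 tumour each, and the labels give no age and no statement of how the Macrod2 allele was made or whether it is lost in every cell type. Of the 18, 17 came from the large intestine (6 hom, 5 het and 6 wt), while het 4 came from the small intestine and entered no comparison. The tumours were bulk tissue, so fewer Spp1-expressing cells and less Spp1 RNA per cell cannot be told apart.

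The sequence shown first holds the RGD codons in capitals, because the receptors described below bind the motif they encode. The window lies on mm10 at chr5:104439436-104439534 on the + strand, in exon 7 of 8 of the longest coding transcript, with the codons at chr5:104439481-104439489. They are codons 145 onwards of 295, and 6 of the 7 annotated transcripts of the gene hold them.
Spp1 RGD window: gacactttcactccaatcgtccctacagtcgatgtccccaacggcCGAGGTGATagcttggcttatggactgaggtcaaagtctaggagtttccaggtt
The second is the stretch of 250 bases before the first of the 2 RefSeq starts of Spp1 (GRCm38.p6, chr5:104434861-104435110, + strand), shown because factors reported at this promoter were measured in the same tumours. Capitals mark, from left to right, a Runx core (ACCACA, at -128 from the start), an Ets core (GGAAGT, at -111), an E-box (CANNTG, at -98), a CCAAT box read on the other strand (at -46) and a TATA-like run (TTTAAA, at -20).
Spp1 promoter: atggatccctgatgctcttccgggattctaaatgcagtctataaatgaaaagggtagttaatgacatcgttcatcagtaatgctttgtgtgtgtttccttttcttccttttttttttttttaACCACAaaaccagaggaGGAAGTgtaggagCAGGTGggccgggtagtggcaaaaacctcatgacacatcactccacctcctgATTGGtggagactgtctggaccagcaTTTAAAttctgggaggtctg
Both strands were searched in windows of 300 bases, from 250 before to 50 after each RefSeq start, and no marked match overlaps another. Of 32851 such windows, 16.8% hold the Runx core, 23.8% the Ets core, 72.3% an E-box, 37.4% a CCAAT box and 13.2% the TATA-like run. The AP-1 letters TGANTCA, in 7.81% of windows, and the Tcf/Lef letters CTTTGA, in 16.003%, are not in this window. The window of the other RefSeq start, at chr5:104435942-104436241, holds 2 E-boxes and no match to the other motifs searched.

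Total gene counts were 14849352 to 20857918 in hom, 17250850 to 18887269 in het and 13529204 to 17233021 in wt large intestinal tumours, and Spp1 had 255 to 1426 counts in each. Epithelial markers such as Epcam, Cdh1, Krt8 and Vil1 summed to 14895 to 17912 CPM (counts scaled to a common library size by TMM factors) in hom, 14221 to 18316 CPM in het and 12058 to 22592 CPM in wt, and all 11 of that list were detected well enough to be tested. The libraries that stand apart are 3 wt tumours. Gata4, a factor of the proximal intestine, had 170.8 CPM in wt 1 and 179.3 CPM in wt 2, both labelled large intestine, and 166.4 CPM in the small intestinal het 4, against 0.282 to 47.3 CPM in the other 15 tumours. In wt 3 the ribosomal RNA precursor Rn45s took 27.0% of all counts. Correlations of list scores with Spp1 that shift without wt 1 and wt 2 are given both ways below. For single genes this was done only in part. Macrod2 itself had 0 to 0.405 CPM in hom, 1.61 to 3.48 CPM in het and 2.93 to 4.55 CPM in wt tumours. The hom labels thus matched the targeted gene, while the het and wt ranges overlapped and cannot check the label of each tumour.

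Spp1 was lower the fewer copies of Macrod2 the mouse carried. It lies at mm10 chr5:104435118-104441050 on the + strand (ENSMUSG00000029304.14), a span of 5933 bases with 4 to 8 exons per transcript. The 6 hom tumours held 33.5, 40.3, 15.1, 20.2, 24.2 and 18.3 CPM, in the order of their mouse numbers. The 5 het tumours of the large intestine held 43.9, 38.0, 29.1, 46.8 and 38.3 CPM, and the 6 wt tumours 57.8, 67.8, 56.2, 44.8, 77.9 and 46.0 CPM. Each hom tumour lay below each wt tumour, hom 2 being the highest hom tumour and wt 4 the lowest wt tumour. The het tumours sat between and overlapped both: 4 of the 5 were below the lowest wt tumour, and 2 were above the highest hom tumour. The small intestinal het 4, at 49.9 CPM, was above each of the 5 het tumours of the large intestine.

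**Figure D1:**
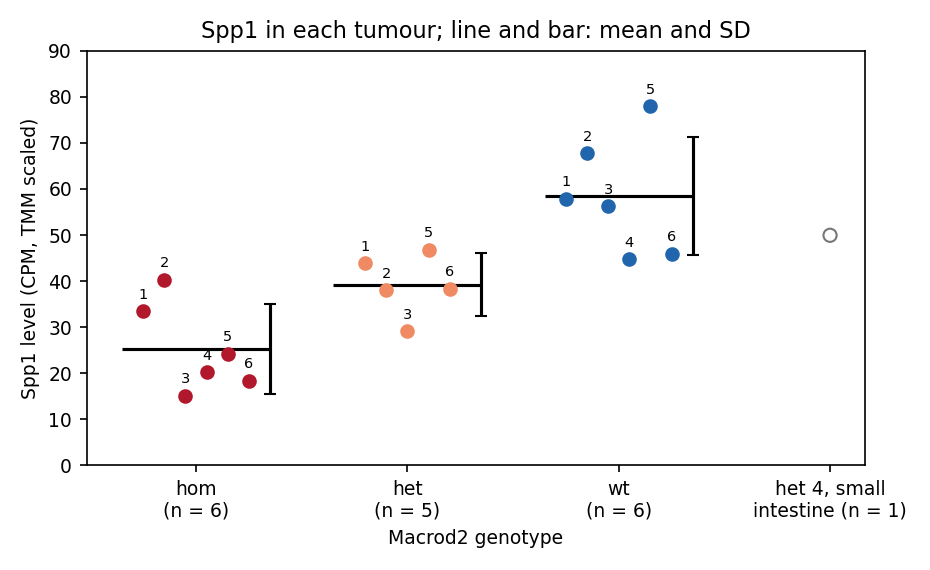
Spp1 level in CPM (vertical axis, linear from 0) in each tumour by Macrod2 genotype (horizontal axis); numbers beside points are mouse numbers, lines are group means and bars are 1 SD. The 6 hom tumours reach 40.3 CPM at most and the 6 wt tumours start at 44.8 CPM, with the 5 het tumours between 29.1 and 46.8 CPM and het 4 as an open circle at 49.9 CPM.

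The mean ± SD was 25.3 ± 9.73 CPM over 6 hom tumours, 39.3 ± 6.78 CPM over 5 het tumours and 58.4 ± 12.8 CPM over 6 wt tumours. The hom mean was 43.3% and the het mean 67.2% of the wt mean. In the authors' RPKM, a level per gene length and library size, the means were 15.2 ± 5.87 in hom (n = 6), 23.7 ± 4.09 in het (n = 5) and 35.2 ± 7.70 in wt (n = 6, SD). The fitted log2 fold change of hom against wt was -1.24 (SE 0.22), that of het against wt -0.60 (SE 0.23) and that of hom against het -0.64 (SE 0.23). These contrasts share samples, so they are 3 views of the same 17 tumours. Without wt 1 and wt 2 the remaining 4 wt tumours averaged 56.2 ± 15.3 CPM (SD) and lay between 44.8 and 77.9 CPM. Without wt 3 as well the last 3 averaged 56.2 ± 18.8 CPM over the same range.

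Relative to the level, the spread was widest among hom tumours, whose highest level was 2.68 times their lowest, against 1.61 times in het and 1.74 times in wt tumours. In CPM the SD was largest in wt tumours. The coefficient of variation was 38.5% in hom, 17.3% in het and 21.8% in wt. Within genotypes the SD of log2 CPM was 0.396, larger than that of 80.6% of the 2743 genes with a mean level within 0.5 log2 units of it. Per gene length, Spp1 ranked above 50.1% of the tested genes in hom 3, where it was lowest, and above 86.5% in wt 5, where it was highest. It was thus a gene of middle to upper level in every tumour.

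Among the 14271 tested genes, 45 (0.315%) had the highest hom tumour below the lowest wt tumour, Spp1 being one of them, and 52 (0.364%) had the lowest hom tumour above the highest wt tumour. In 44 of the 45 the means also ran hom, het, wt from low to high, an order found in 4227 of all tested genes. The 45 were already picked as lower in hom, and 7751 of all tested genes (54.3%) were lower there in the fit. Of the 45, 25 had a mean log2 CPM of at least 5, and among these 25 Spp1 had the largest fold difference. Because the gene was chosen on this contrast, nothing is read from its place among them. In edgeR's quasi-likelihood test with Benjamini-Hochberg adjustment 1 gene (0.00701%), Macrod2, passed 0.05 in hom against wt, where 2277 genes (15.96%) had an unadjusted p under 0.05. There limma-voom called 1 gene and DESeq2 22. The same test called 0 genes (0%) for het against wt. There 407 had an unadjusted p under 0.05, against 339 in limma-voom and 498 in DESeq2, which also called 0. For hom against het it called 1 (0.00701%), again Macrod2, with 286 unadjusted. That call was lost in a fit of those 2 groups alone (smallest adjusted p = 0.092 in edgeR).

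Macrod2 and Spp1 levels went together across genotypes, and no relation past the threshold was found within them. Over the 17 tumours the log2 CPM of both genes had a Pearson r of 0.76 and a Spearman rho of 0.77. With genotype means removed r was -0.09 (permutation p within genotypes 0.82). Macrod2 had only 0 to 8 counts in the 6 hom tumours, so this r could hardly show a relation among them. Without the 2 tumours farthest from the median Macrod2 level the r across genotypes was 0.85. The hom tumours stand apart in Macrod2, while het 6, at 3.48 CPM, lay above wt 3 and wt 5. The values across genotypes restate the genotype difference on which the gene was chosen and get no test, and the same holds for each r over the 17 tumours. The total count of the library had r -0.47 and rho -0.69 with Spp1. Without the 2 tumours of most extreme depth r was -0.53. The wt libraries were the shallower ones, apart from hom 2, which had fewer counts than wt 1, wt 2, wt 5 and wt 6. Within genotypes that r was -0.04 (permutation p = 0.92), and its part in the genotype difference was not tested. Gata4 had r -0.03 with Spp1 over the 17 tumours and 0.06 with genotype means removed, and Rn45s 0.23 and -0.10. Without wt 1 and wt 2 the r was -0.36 for Gata4 and 0.34 for Rn45s.

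Of 10 osteopontin receptor genes 2 were above Spp1 in mean level over the 17 tumours and 8 below it, and none differed by genotype past the threshold. In hom tumours alone, where Spp1 averaged 15.2 RPKM, Itgav (19.1 RPKM), Itgb5 (18.3 RPKM) and Itgb6 (16.6 RPKM) were above it as well. In RPKM, averaged over the 17 tumours, Itgb1, the common integrin beta chain, was at 145.8 and Cd44 at 63.6, above Spp1 itself at 24.8. Then came Itgb5 at 20.5 RPKM, Itgav at 16.8, Itgb6 at 15.6 and Itga5 at 10.47, the chains of the RGD-binding integrins of epithelial and stromal cells. Itgb3, the beta chain of the integrin of osteoclasts and platelets, was at 1.64 RPKM. Of the alpha chains that bind osteopontin fragments or the motif in other tissues, Itga9 was at 1.52 RPKM, Itga4, mainly of leukocytes, at 0.142 and Itga8, of smooth muscle, at 0.101.

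**Figure D2:**
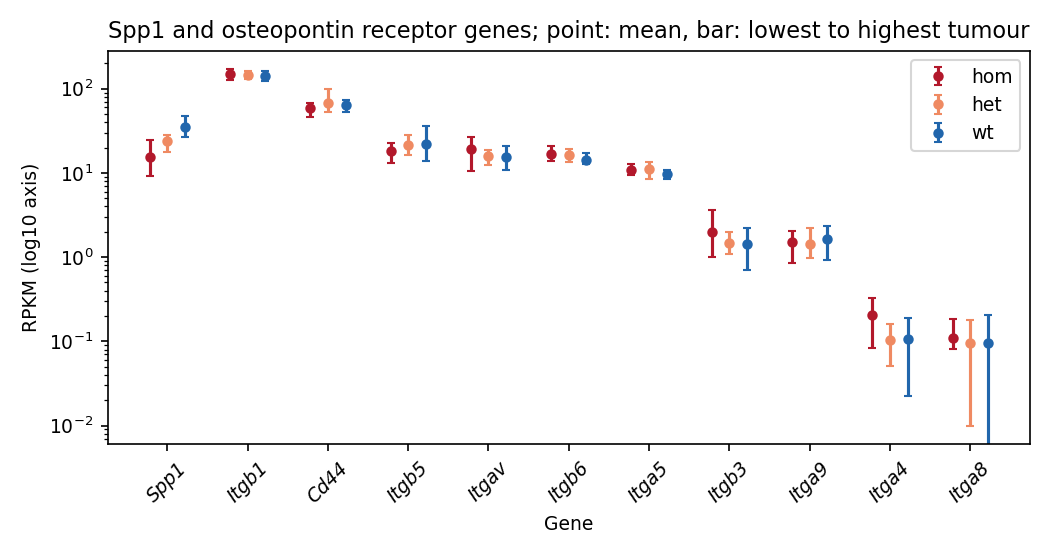
Level of Spp1 and of 10 receptor genes in the authors' RPKM (vertical axis, log10) for hom, het and wt tumours; points are group means over 6, 5 and 6 tumours and bars run from the lowest to the highest tumour, leaving the axis where the lowest tumour is listed at 0. Spp1 means run 15.2, 23.7 and 35.2 RPKM from hom to wt, while the bars of each receptor gene overlap between genotypes.

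For Cd44 the means were 59.2 ± 9.03 RPKM in hom, 67.5 ± 17.98 RPKM in het and 64.8 ± 9.22 RPKM in wt (SD, n = 6, 5 and 6), a log2 fold change of -0.16 (SE 0.15) for hom against wt. Itgav averaged 19.1 ± 5.51 RPKM in hom, 15.9 ± 2.33 RPKM in het and 15.3 ± 3.72 RPKM in wt. Across the list 7 receptor genes were higher and 3 lower in hom against wt, with a median log2 fold change of 0.13 against -0.03 over all tested genes. None of the 10 passed in edgeR (smallest adjusted p = 0.35 in hom against wt, 0.9995 in het against wt and 0.9998 in hom against het), and 0 had an unadjusted p under 0.05. Over the 17 tumours their r with Spp1 ran from -0.45 for Itga4 to 0.31 for Cd44. With genotype means removed it ran from -0.15 to 0.31, and the smallest adjusted permutation p within genotypes was 0.86.

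The other SIBLING genes lie beside Spp1 on chromosome 5 and were low or not detected. Ibsp, the gene of bone sialoprotein, averaged 0.614 ± 0.342 RPKM in hom, 0.459 ± 0.328 RPKM in het and 0.337 ± 0.284 RPKM in wt tumours (SD, n = 6, 5 and 6). Dmp1, which encodes dentin matrix protein, averaged 2.36 ± 1.13 RPKM in hom, 2.04 ± 0.924 RPKM in het and 1.79 ± 0.805 RPKM in wt. Neither difference passed (log2 fold change 0.80, SE 0.66, and 0.38, SE 0.42, for hom against wt). Dspp and Mepe, of dentin and bone, had 0 counts in all 17 tumours.

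Within 500 kb of Spp1 the count table holds 15 other genes, of which 11 were tested. In hom against wt 7 of the 11 were higher and 4 lower, with a median log2 fold change of 0.16, and none passed in edgeR (smallest adjusted p = 0.27). Pkd2, the polycystin channel gene 18400 bases downstream, averaged 27.9 ± 3.27 CPM in hom, 26.3 ± 3.05 CPM in het and 24.5 ± 4.53 CPM in wt. Its r with Spp1 was -0.30 over the 17 tumours and 0.01 without wt 1 and wt 2. Sparcl1, a matricellular protein gene on the same stretch, averaged 24.3 ± 11.3 CPM in hom, 15.3 ± 4.59 CPM in het and 17.7 ± 5.01 CPM in wt, at r -0.22. The zinc finger gene Zfp951 had the highest r of these neighbours (0.61, and 0.69 with genotype means removed), at means of only 0.753, 1.05 and 0.958 CPM in hom, het and wt.

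Genes of enzymes that modify osteopontin differed from each other in direction, and none passed. Fam20c, the kinase that phosphorylates secreted proteins of this family, averaged 5.04 ± 1.02 RPKM in hom, 6.70 ± 1.14 RPKM in het and 6.80 ± 2.81 RPKM in wt tumours (SD, n = 6, 5 and 6). Acp5, the tartrate-resistant phosphatase that removes such phosphates, averaged 41.5 ± 4.72 RPKM in hom, 46.1 ± 7.62 RPKM in het and 53.1 ± 23.5 RPKM in wt. In wt 1 and wt 2 it stood at 108 and 152 CPM, above the 53.2 to 79.0 CPM of wt 3 to wt 6. Mmp7, the matrilysin of intestinal epithelium and adenomas and a protease of osteopontin, was the most abundant of the list at 954 ± 267 RPKM in hom, 957 ± 228 RPKM in het and 770 ± 484 RPKM in wt. Mmp9 averaged 7.56 ± 1.73 RPKM in hom, 6.18 ± 4.77 RPKM in het and 4.21 ± 2.19 RPKM in wt, and F2, the gene of thrombin, 2.28 ± 0.640 RPKM in hom, 2.39 ± 0.428 RPKM in het and 2.81 ± 1.02 RPKM in wt. Tgm2, the transglutaminase that cross-links osteopontin, was at 74.1 RPKM over the 17 tumours, while Mmp3 was at 1.98 and Mmp12, of macrophages, at 1.68. Of the 8 genes 4 were higher and 4 lower in hom against wt, and none passed in edgeR (smallest adjusted p = 0.32). Their r with Spp1 over the 17 tumours ran from -0.41 for Mmp9 to 0.36 for F2, with Fam20c at 0.31 and Acp5 at 0.27. Without wt 1 and wt 2 it ran from -0.38 for Mmp9 to 0.80 for Fam20c, with F2 at 0.69 and Acp5 at -0.15.

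Factors reported to act at the Spp1 promoter showed no difference past the threshold. Of 13 such genes 9 were higher and 4 lower in hom against wt, with a median log2 fold change of 0.10, and none passed in edgeR. Runx1 averaged 7.59 RPKM in hom, 6.66 RPKM in het and 7.12 RPKM in wt, Runx2 1.52, 1.39 and 1.22 RPKM in the same order, and Ets1 6.52, 6.17 and 5.95 RPKM. Etv4, an Ets factor of Wnt-driven tumours, averaged 21.4 RPKM in hom, 24.9 RPKM in het and 26.6 RPKM in wt, at r 0.37 with Spp1. The 1 member with an unadjusted p under 0.05 in hom against wt was Gli1, a Hedgehog effector, at a log2 fold change of 1.43 (SE 0.41, adjusted p = 0.26 in edgeR) and a level of 0.648 ± 0.226 CPM in hom, 0.458 ± 0.262 CPM in het and 0.229 ± 0.109 CPM in wt. Its r with Spp1 was -0.65 over the 17 tumours and -0.16 with genotype means removed.

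No gene followed Spp1 across the tumours past the threshold. In edgeR, with the log2 CPM of Spp1 as a slope, 0 of 14270 genes (0%) passed 0.05 over the 17 tumours, the smallest adjusted p was 0.30, and 2107 genes were under 0.05 before adjustment. Likewise limma-voom called 0, with 2092 before adjustment. With genotype in the model edgeR again called 0 (0%), with 104 genes under 0.05 before adjustment, and limma-voom 0, with 114. The slope over tumours takes in the genotype difference on which Spp1 was chosen, and the slope with genotype in the model does not. The correlations below are given as values. Over all genes the r with Spp1 had a median of -0.04 and a 5th to 95th percentile range of -0.51 to 0.50, and 57 genes had an absolute r of at least 0.7. With genotype means removed 8 genes did.

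The 10 named genes with the highest r were Afp, Zswim3, Cldn18, Zfp459, Tle6, Hibadh, Haus8, Tyro3, Lbh and Sirt3, with r of 0.72 to 0.79. Afp, the gene of the fetal plasma protein alpha-fetoprotein, led at r 0.79 (rho 0.82). It held 3.94, 3.65, 1.48, 1.84, 3.796 and 0.919 CPM in hom 1 to hom 6, against 3.23, 1.38, 3.22, 5.91 and 2.68 CPM in the 5 het tumours and 4.12, 6.29, 7.05, 7.74, 7.32 and 5.13 CPM in wt 1 to wt 6. Each hom tumour was thus below each wt tumour for this gene too, while 1 het tumour reached into the wt range. Cldn18, a claudin of gastric and lung tight junctions, averaged 7.55 ± 3.26 CPM in hom, 11.8 ± 5.29 CPM in het and 15.03 ± 2.80 CPM in wt (SD, n = 6, 5 and 6), at r 0.78. Hibadh, of mitochondrial valine breakdown, had r 0.75, Haus8, a subunit of the spindle complex augmin, 0.74, Tyro3, a receptor tyrosine kinase, 0.74, and Sirt3, a mitochondrial deacetylase, 0.72. All 10 were lower in hom than in wt, a direction that follows from choosing them by r with a gene that was lower there. With genotype means removed their r ran from 0.34 for Hibadh to 0.74 for Lbh, and without wt 1 and wt 2 from 0.70 for Lbh to 0.83 for Zswim3. Without the 2 tumours farthest from each gene's median level it ran from 0.49 for Tyro3 to 0.84 for Afp, with Lbh at 0.50.

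The 9 named genes at the lowest r were Map3k6, Hmga2-ps1, Pitpnm1, Fam193a, Itpr3, Ccdc30, Kctd9, Gpatch1 and Zswim4, with r of -0.75 to -0.82. Map3k6, a stress-kinase kinase, had the lowest, at r -0.82 (rho -0.84). Within hom, het and wt tumours alone Map3k6 had r of -0.15, -0.83 and -0.78, and with genotype means removed -0.46. It held 22.5, 19.0, 20.3, 24.1, 18.4 and 20.3 CPM in hom 1 to hom 6, against 10.7, 18.5, 21.1, 12.8 and 12.8 CPM in the 5 het tumours and 10.4, 9.74, 13.6, 13.1, 10.54 and 13.9 CPM in wt 1 to wt 6. The hom and wt tumours did not overlap, and het 2 and het 3, among the het tumours with less Spp1, were in the hom range. Itpr3, a calcium release channel of the endoplasmic reticulum, had r -0.78. Hmga2-ps1 is named as a pseudogene copy of Hmga2, so its counts, 0.874 to 7.27 CPM, may be shared with the parent gene and are uncertain. All 9 were higher in hom than in wt, again as the choice fixes, and with genotype means removed r ran from -0.31 for Gpatch1 to -0.73 for Fam193a. Without wt 1 and wt 2 it ran from -0.68 for Gpatch1 to -0.89 for Hmga2-ps1. Without the 2 tumours farthest from each gene's median level it ran from -0.61 for Kctd9 to -0.82 for Map3k6. For each of these 19 genes the adjusted p of the slope was 0.30 in edgeR.

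**Figure D3:**
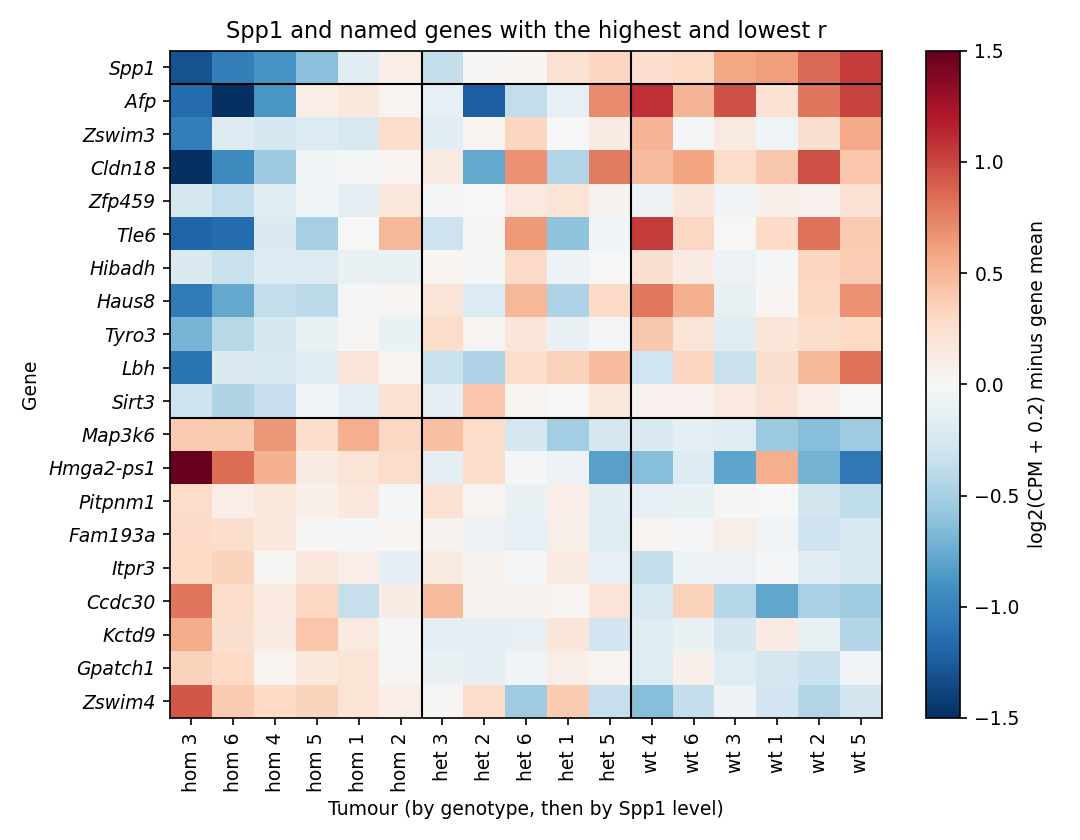
Log2(CPM + 0.2) minus the gene's mean over the 17 tumours (colour, clipped at 1.5 either way) for Spp1 and the 19 named genes with the highest and lowest r (rows), with tumours as columns grouped hom, het, wt and sorted by Spp1 within each. Afp to Sirt3 run from blue at hom 3 to red among wt tumours, and Map3k6 to Zswim4 run the other way, with hom 3 the reddest for Hmga2-ps1 and Zswim4.

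The tumour hom 3, with the least Spp1 at 15.1 CPM, also had the highest Hmga2-ps1 and Zswim4 and the lowest Cldn18 and Lbh of the 17. Within hom tumours alone (n = 6) the 10 positive genes had r of 0.79 to 0.95. Within het tumours alone (n = 5) the r of the same genes ran from -0.90 for Tyro3 to 0.75 for Lbh, and within wt tumours alone (n = 6) from -0.21 for Sirt3 to 0.71 for Lbh. In each of these genotypes 6 of the 10 were positive. The 9 genes at the lowest r ran from -0.87 for Fam193a to -0.15 for Map3k6 within hom tumours. Within het tumours they ran from -0.83 for Map3k6 to 0.72 for Gpatch1, and within wt tumours from -0.78 for Map3k6 to 0.38 for Zswim4. Lbh was the one of the 10 whose r stayed above 0.7 in hom, het and wt tumours taken separately (0.81, 0.75 and 0.71).

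Lbh, a transcription cofactor and known Wnt target, also had the highest r once genotype means were removed (0.74). It held 37.3, 33.5, 15.1, 27.6, 28.9 and 28.1 CPM in hom 1 to hom 6, against 41.7, 23.7, 25.9, 45.2 and 39.2 CPM in the 5 het tumours and 38.6, 46.0, 25.8, 26.4, 57.9 and 41.0 CPM in wt 1 to wt 6. In contrast to Spp1 its genotypes overlapped widely. After it came Cenpl, a centromere protein gene, at 0.71, Zfp459 at 0.70, Cdkn2d, an inhibitor of cyclin-dependent kinases, at 0.68 and Tpm2, a tropomyosin of smooth muscle, at 0.68. At the other end were Aldh2, the mitochondrial aldehyde dehydrogenase, at -0.74, Fam193a at -0.73, Ubr4, a ubiquitin ligase, at -0.71, Vps53, of endosome-to-Golgi transport, at -0.70 and Pcdhb4 at -0.70. Pcdhb4 belongs to a cluster of near-identical protocadherin genes and is uncertain. Aldh2 averaged 489 ± 62.9 CPM in hom, 450 ± 66.7 CPM in het and 436 ± 46.3 CPM in wt tumours. None of these slopes passed in edgeR with genotype in the model, where each of the 10 genes had an adjusted p of 1.

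**Figure D4:**
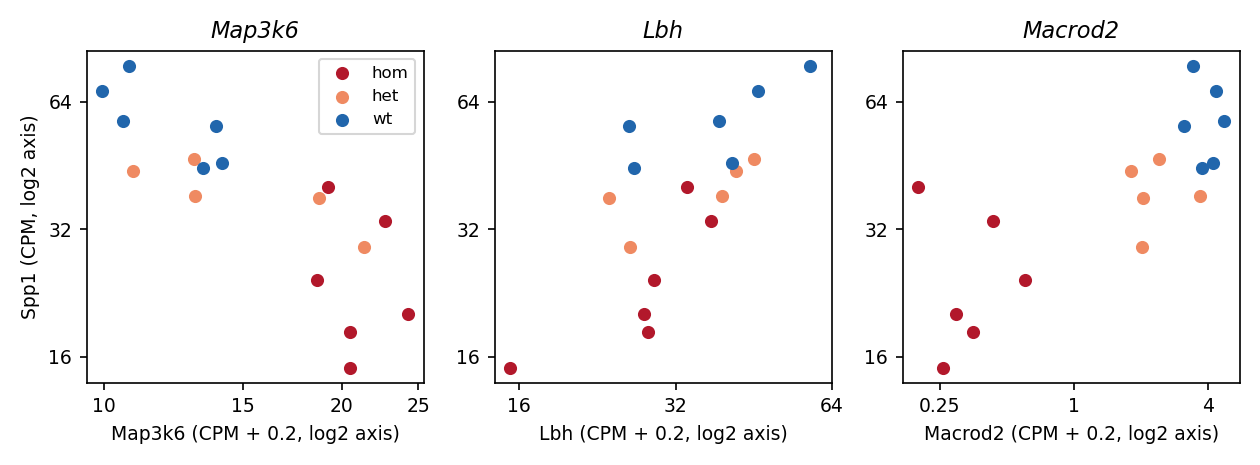
Spp1 (vertical axes, CPM on a log2 scale) against Map3k6, Lbh and Macrod2 (horizontal axes, CPM + 0.2 on a log2 scale), with 1 point per large intestinal tumour coloured by genotype. Map3k6 separates hom from wt and runs opposite to Spp1 (r -0.82, and -0.46 with genotype means removed). Lbh rises with Spp1 inside each genotype (r 0.74 with genotype means removed). Macrod2 has r -0.09 with genotype means removed, where its 0 to 8 counts in hom tumours could hardly show a relation.

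When wt 1 and wt 2 were left out, the slope test over the remaining 15 tumours called 28 of 14391 genes (0.195%), each falling as Spp1 rose. That slope takes in the genotype difference on which Spp1 was chosen, so the 28 are listed as a description and their p-values are not read. With genotype in the model edgeR called 0 genes (0%) over the same tumours, with 465 genes at an unadjusted p under 0.05. Of the 28, the 6 with the smallest adjusted p (0.016 in edgeR), a rule chosen after their values were seen, were Cd36, a fatty acid transporter (slope -2.18 log2 units per log2 unit of Spp1), Rbp2, a retinol-binding protein of enterocytes (-1.48), Gsta1, a glutathione transferase (-1.11), Hmga2-ps1 (-1.09), the quinone reductase Nqo1 (-0.79) and Por, the cytochrome P450 reductase (-0.76). Of the 19 genes above, 1 is among the 28 (Hmga2-ps1). Of the 26 gene lists, the proximal intestine list had 2 of its 10 tested members among them, the lipid carrier genes Fabp1 (-2.61) and Apoa4 (-2.48), and the other 25 had 0. The score of that list, averaged over its members, had an r with Spp1 of -0.33 over 17 tumours and -0.65 over the 15. With genotype means removed that r was -0.09 over 17 tumours.

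Marker lists of cell types known to make osteopontin gave no relation to Spp1 past the threshold with genotype means removed. Each list was scored by averaging the log2 CPM of its tested members, and 23 of 26 lists had the 5 tested members needed. A p over tumours takes in the genotype difference on which Spp1 was chosen, so the tests read here are those with genotype means removed, where each adjusted permutation p was 0.89 or more. Macrophage and monocyte markers, 18 tested, summed to 133 to 201 CPM in hom, 126 to 184 CPM in het and 101 to 240 CPM in wt, and their score had an r of -0.21 with Spp1 over the 17 tumours, -0.42 without wt 1 and wt 2, and -0.02 with genotype means removed. Individual members ran from -0.63 for Mrc1, the mannose receptor, to 0.32 for Lyz2, lysozyme, while C1qa, C1qb and C1qc, of complement, lay at -0.18 to -0.30. Genes that mark Spp1-rich macrophages in tumours, such as Trem2, Gpnmb and Apoe, had a score at r -0.19, -0.34 without wt 1 and wt 2, and 0.06 with genotype means removed. Of its 12 members 4 were higher and 8 lower in hom against wt, with a median log2 fold change of -0.12 and 0 past the threshold in edgeR. The higher ones include Trem2, at 0.612 RPKM in hom and 0.355 RPKM in wt tumours, and Gpnmb, at 0.277 RPKM in hom and 0.127 RPKM in wt. The lower ones include the lysosomal genes Ctsb, at 147 RPKM in hom and 182 RPKM in wt (r 0.58 with Spp1, and 0.22 with genotype means removed), and Cd63, at 66.8 RPKM in hom and 90.3 RPKM in wt (r 0.50 and 0.06). Several members of that list, Cd9, Lgals3 and Ctsd among them, are also strongly expressed by intestinal epithelium. Neutrophil genes had r -0.16 and inflammatory cytokine genes -0.02, against -0.26 and 0.11 without wt 1 and wt 2. T and NK cell genes had r -0.09 and endothelial genes -0.15 over the 17 tumours, but -0.55 and -0.54 without wt 1 and wt 2. These values take in the genotype difference, and with genotype means removed r was -0.02 and -0.01.

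**Figure D5:**
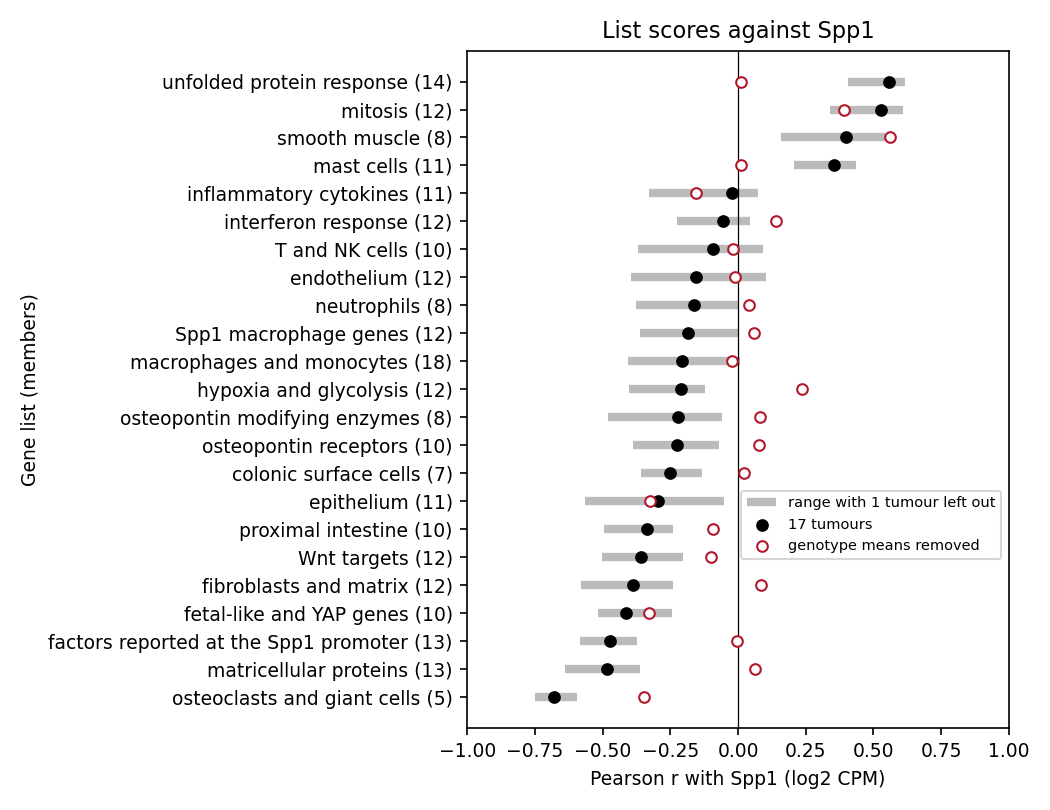
Pearson r (horizontal axis) between Spp1 and the score of each of 23 gene lists (rows, tested members in brackets) over 17 tumours (black), with genotype means removed (open red), and the range when 1 tumour is left out (grey). Osteoclast and giant cell genes stand at -0.68 and unfolded protein response genes at 0.56, and most open points lie nearer 0 than the black ones.

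By Pearson r no list passed 0.05 after adjustment over the 23, either over the 17 tumours or with genotype means removed. By Spearman rho over the 17 tumours osteoclast and giant cell genes did (adjusted permutation p = 0.021). That value takes in the genotype difference on which Spp1 was chosen and is not read. The score of osteoclast and giant cell genes lay farthest from 0, at r -0.68 over the 17 tumours (rho -0.74), and -0.35 with genotype means removed (permutation p within genotypes 0.11, adjusted 0.89). Without the 2 tumours of most extreme score r was -0.70, and without wt 1 and wt 2 it was -0.67. In this list Ctsk, cathepsin K, had r -0.62, with 1.14, 0.817 and 0.667 RPKM in hom, het and wt, and Ocstamp, a cell fusion gene, r -0.60, with 1.35, 1.05 and 0.812 RPKM. Acp5, the best-known osteoclast enzyme and a member of the enzyme list as well, had r 0.27. Calcr, the calcitonin receptor gene that defines osteoclasts, had 0 RPKM in each genotype, and Dcstamp and Oscar were too low to be tested.

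Chaperone and mitosis genes had positive correlations with Spp1 over the 17 tumours. Unfolded protein response genes had a score at r 0.56 (rho 0.55), and 13 of 14 members had a positive r, up to 0.60 for Pdia6, a disulfide isomerase. In hom against wt 13 of the 14 were lower, with a median log2 fold change of -0.74 against -0.03 for all tested genes, and 0 passed in edgeR, with 11 at an unadjusted p under 0.05, against 15.96% of all tested genes. With genotype means removed the score's r was 0.01, and without the 2 tumours of most extreme score it was 0.44. Mitosis genes had r 0.53 (rho 0.43), all 12 members were positive, and with genotype means removed r was 0.39. It rested on the 2 tumours of most extreme score, without which r was 0.15, and was 0.65 without wt 1 and wt 2. All 12 were lower in hom than in wt, with a median log2 fold change of -0.41, and 0 passed in edgeR. Of the 12, 2 had an unadjusted p under 0.05, against 15.96% of all tested genes. Of all tested genes 54.3% were lower in hom than in wt.

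Smooth muscle genes were the list with the highest r inside genotypes. Their score had r 0.40 over the 17 tumours, 0.56 without wt 1 and wt 2, and 0.56 with genotype means removed (permutation p within genotypes 0.053, adjusted 0.89), and the 8 members, Tagln at 0.59 and Des at 0.54 among them, all lay between 0.43 and 0.59 there. Without the 2 tumours of most extreme score, hom 3 and wt 5, the r over tumours was -0.08, so it rested on those 2. The summed level of these genes was 65.5 to 227 CPM in hom, 104 to 183 CPM in het and 101 to 296 CPM in wt, and 0 of the 8 passed in hom against wt. The part of smooth muscle content in the Spp1 levels was not tested.

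Among matricellular proteins, the wider functional class of osteopontin, 12 of 13 tested genes were higher in hom than in wt, with a median log2 fold change of 0.35, opposite in sign to Spp1. Of all tested genes 45.7% were higher. None of the 13 passed in edgeR, and 4 had an unadjusted p under 0.05, against 15.96% of all tested genes. Thbs2 and Thbs3, thrombospondins, had log2 fold changes of 1.59 (SE 0.49) and 1.28 (SE 0.29), each with an adjusted p of 0.26, and r with Spp1 of -0.54 and -0.78. Without the 2 tumours farthest from each gene's median level r was -0.03 for Thbs2 and -0.71 for Thbs3. With genotype means removed r was -0.20 and -0.36, and Thbs3 had only 5 to 42 counts per tumour. The score of the list had r -0.48 over the 17 tumours, -0.35 without wt 1 and wt 2, and 0.06 with genotype means removed. Fibroblast and matrix genes were higher in hom against wt in all 12 tested, at a median log2 fold change of 0.57, with summed levels of 386 to 889 CPM in hom, 298 to 595 CPM in het and 260 to 503 CPM in wt. Their score had r -0.39 (-0.03 without the 2 tumours of most extreme score, on which it rested), 0 of the 12 passed in edgeR and 5 had an unadjusted p under 0.05, beside the same 15.96%. The part of stromal content in these relations was not tested.

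The remaining scores lay between -0.47 and 0.35 over the 17 tumours. Factors reported at the Spp1 promoter had r -0.47 (-0.57 without wt 1 and wt 2), fetal-like and YAP target genes -0.42 (-0.35), receptors -0.22 (-0.42), modifying enzymes -0.22 (-0.13) and interferon response genes -0.06 (0.05). Wnt targets had r -0.36 over the 17 tumours and -0.06 without wt 1 and wt 2. Epithelial genes had r -0.30 and, without wt 1 and wt 2, -0.69. With genotype means removed their r was -0.33 over 17 tumours. Colonic surface genes had r -0.25 and -0.45 without those 2 tumours, and hypoxia and glycolysis genes -0.21 and -0.51.

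Mast cell genes were lower in hom against wt in all 11 tested, with a median log2 fold change of -3.32 against -0.03 over all tested genes. Of all tested genes 54.3% were lower. None of the 11 passed in edgeR, and 10 had an unadjusted p under 0.05, against 15.96% of all tested genes. Their summed level was 251.4, 68.4, 188, 243, 57.8 and 48.1 CPM in hom 1 to hom 6, against 57.0, 96.6, 1735, 60.2 and 401 CPM in the 5 het tumours and 135, 8289, 1059, 470 and 718 CPM in wt 1 to wt 5, with 41.2 CPM in wt 6. The genotypes overlapped, wt 1 and wt 6 lying within or below the hom range and wt 2 far above the rest. Mcpt1, a mucosal mast cell protease, averaged 59.6 ± 49.1 RPKM in hom, 218 ± 357 RPKM in het and 930 ± 1751 RPKM in wt (SD, n = 6, 5 and 6), and its r with Spp1 was 0.35. The score of the list had r 0.35 over the 17 tumours, 0.24 without wt 1 and wt 2, and 0.01 with genotype means removed. The part of mast cell content in the Spp1 levels was not tested. B and plasma cell genes and enteric nerve and glia genes had 4 tested members each and were not scored, and neither were the SIBLING genes.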

How the data were processed

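The values were bulk RNA sequencing data of 18 tumours. The labels' protocols give extraction of total RNA and a stranded library kit for total RNA; another label field says polyA RNA. Trimmomatic, TopHat and featureCounts (Subread 1.4.5-p1) are named, with mm10, per the submitters' processing notes. The strand setting of the counting is not given in the sources used here. Counts of a gene overlapped by one on the other strand are uncertain. The deposited table holds whole-number read counts and the authors' RPKM, which equalled counts over length and scaled library total within 0.0001 of the value.

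Groups came from genotype and source labels, with mice numbered within genotypes; nothing says whether libraries share a litter or batch, so p-values measure the spread between these tumours. Counts were tested with edgeR 4.0.16 (R 4.3.3; filterByExpr, TMM, robust quasi-likelihood, Benjamini-Hochberg over all tested genes, 0.05) in 1 fit of the 17 large intestinal tumours, for 3 contrasts and for slopes on Spp1 with and without genotype. Correlations used log2 CPM with a prior count of 2; permutation tests were two-sided with 100000 resamples. Alternatives used DESeq2 1.42.0, limma 3.58.1, other scalings and filters, and left-out tumours. Scripts were tested on simulated counts. The named genes are Spp1, the listed receptors, family members and enzymes, the 10 genes with the highest and lowest r (5 within genotypes) at a mean log2 CPM of at least 1 without predicted genes, annotated genes within 500 kb, and up to 2 members per direction of other described lists by p. Further members were named after their values were seen. Of the 10 genes with the lowest r, 1 is not reported here. Spp1 and all lists were chosen with earlier results of these data known. Gene models came from GENCODE and promoters from RefSeq.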

Additional observations from a re-analysis of the deposited data

Results flagged for a closer look

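For 48 tested genes named above, each genotype group of large intestinal tumours was searched for a tumour far from the others of its group, by the gap to its neighbour over the group's range. This marked 9 of 144 gene and group pairs, and Spp1 was not among them. Chance marks about 1 in 20 for genes chosen without regard to these tumours. Many of the 48 genes were chosen by their r with Spp1 over the same tumours. That choice can favour genes that stand out where Spp1 is extreme, so the chance rate does not hold for them. Among the marked genes this concerns Hmga2-ps1, Zswim4, Tpm2 and Hibadh.

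Hom 3, the tumour with the least Spp1, was marked for 3 genes. It had 7.27 CPM of Hmga2-ps1, against 2.23 to 3.83 CPM in the other hom tumours. It had 56.8 CPM of Zswim4, against 31.8 to 38.8 CPM, and 2.13 CPM of F2, the thrombin gene, against 4.36 to 5.52 CPM. Hom 6 had 1.07 CPM of Itga8, against 0.473 to 0.657 CPM in the others.

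Wt 5, the tumour with the most Spp1, had 41.2 CPM of Tpm2, against 18.5 to 26.7 CPM in the other wt tumours. Wt 2 had 88.5 CPM of the integrin gene Itgb6, against 64.8 to 72.3 CPM, and wt 3 had 26.2 CPM of Mmp9, against 6.77 to 13.6 CPM. Het 2 had 10.2 CPM of Mmp3, against 1.08 to 2.93 CPM in the other het tumours, and het 6 had 72.9 CPM of Hibadh, against 56.7 to 61.2 CPM.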

How the results depend on the processing

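The log2 fold change of Spp1 stayed within 1 SD of its reported value under all 28 alternatives, at -1.40 to -1.09 for hom against wt, -0.65 to -0.45 for het against wt and -0.83 to -0.52 for hom against het; scaling by library totals moved the median of all genes to 0.11 in hom against wt. The count of genes past the threshold in hom against wt was 22 with DESeq2, 1282 without wt 1, wt 2 and wt 3 (an alternative chosen after seeing the data), 2 with a replicate block and 1 to 2 with 1 tumour left out (2 without hom 2 or hom 5). In hom against het it was 0 in a fit of those groups alone and 0 with a replicate block. Genes that follow Spp1 over tumours numbered 28 without wt 1 and wt 2, 29 without wt 1, wt 2 and wt 3, 4 with a replicate block and 0 to 1 with 1 tumour left out (1 without wt 1). Lists that follow Spp1 numbered 1 by Spearman rho, 1 on deposited RPKM, 1 with the small intestinal tumour added, 5 without wt 1, wt 2 and wt 3, and 0 to 1 with 1 tumour left out (1 without het 6 or wt 3). Wherever 1 list was called it was that of osteoclast and giant cell genes, which was also among the 5. The counts over tumours take in the genotype difference on which Spp1 was chosen, while 0 genes and 0 lists were called with genotype removed. The cause of each was not tested. The block by mouse number is a check only, since deviations of same-numbered tumours correlated at -0.45 to 0.33. Spp1 had at least 255 counts in each tumour, so counting error is small beside the spread between tumours, while Macrod2, Gli1 and Hmga2-ps1 rest on few counts.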
